A study of Mus musculus with 21 samples.

Results

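The insulin-like growth factor (IGF) axis is described here through 9 genes: the ligand Igf1, the receptors Igf1r and Igf2r, and the binding proteins Igfbp2, Igfbp3, Igfbp4, Igfbp5, Igfbp6 and Igfbp7. They were chosen by gene symbol from 53801 gene identifiers in each count file, with earlier results of these data known. All 9 had an identifier and all 9 passed the filter on low counts in both experiments. Gene expression was measured by RNA sequencing in 21 mouse libraries, and the series asked whether the protease Fap regulates repair of the heart after an infarct. The heart libraries, all of day 7, hold border zone tissue by their labels. In an infarcted heart this is the rim of muscle beside the infarct. Sham hearts carry the same label without an infarct. The heart libraries comprised 4 of genotype FapKO with myocardial infarction (called FapKO), 4 of genotype WT with MI+FAPI (called FAPI), 4 of genotype WT with MI alone (called MI) and 3 of genotype WT with a sham operation (called sham). FAPI is read from the series title as an inhibitor of Fap, which encodes fibroblast activation protein. In a separate experiment, mouse ventricular fibroblasts spent 7 days in a 5% GelMA hydrogel, which is made from gelatin, in 3 libraries with endothelial cells (co-culture) and in 3 libraries alone (3D-culture). Co-cultured fibroblasts were sorted as Pdgfra-positive cells lacking CD45 and CD31, whereas RNA of fibroblasts grown alone was extracted directly, and the effects of partner cells and of sorting cannot be told apart. The sources used here give no strain, age, sex, inhibitor compound, dose or design of the knockout allele. They also do not say that every heart library is a separate animal, and the spread behind each heart p-value may then be partly technical.

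IGF1 is a secreted hormone made by the liver and also locally by fibroblasts and macrophages. It binds IGF1R, a receptor tyrosine kinase that signals through insulin receptor substrates to PI3K and AKT, a route known for growth and survival of heart muscle cells. IGF2R, also the mannose 6-phosphate receptor, removes IGF2 from the cell surface and carries enzymes to lysosomes. The IGF binding proteins hold IGF1 and IGF2 in the extracellular space, and proteases such as PAPP-A cut some of them and free the ligand. IGFBP6 prefers IGF2, and IGFBP7 is a distant relative with weak IGF binding that lies in the matrix around vessels.

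The genes lie on 7 chromosomes in the mm10 build of the mouse genome (GENCODE M21 annotation). Igf1 (ENSMUSG00000020053.18) is at chr10:87858265-87937042 on the plus strand, Igf1r (ENSMUSG00000005533.10) at chr7:67952827-68233668 on the plus strand, and Igf2r (ENSMUSG00000023830.13) at chr17:12682406-12769664 on the minus strand. Igfbp2 (ENSMUSG00000039323.18) at chr1:72824503-72852474 on the plus strand and Igfbp5 (ENSMUSG00000026185.8) at chr1:72857932-72874884 on the minus strand are neighbours with their 3′ ends facing, 5457 bases apart. Igfbp3 (ENSMUSG00000020427.11) is at chr11:7206086-7213923 on the minus strand, and Igfbp4 (ENSMUSG00000017493.12) is on the same chromosome at chr11:99041244-99054392 on the plus strand. Igfbp6 (ENSMUSG00000023046.6) is at chr15:102144362-102149511 on the plus strand and Igfbp7 (ENSMUSG00000036256.13) at chr5:77349240-77408041 on the minus strand. All counts are over whole genes, so isoforms were not separated. Igfbp7 shares 85 exon bases with Polr2b on the opposite strand, and no source says whether counting used strand.

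Promoter stretches are shown for Igf1, Igfbp4 and Igfbp7, which all rose after infarction, and for Igfbp6, which did not pass the test. Each is the 150 bases before the RefSeq gene start in build GRCm38.p6, 5′ to 3′ on the gene's strand, and capitals mark motif matches on either strand.
Igf1, chr10:87860961-87861110, plus strand: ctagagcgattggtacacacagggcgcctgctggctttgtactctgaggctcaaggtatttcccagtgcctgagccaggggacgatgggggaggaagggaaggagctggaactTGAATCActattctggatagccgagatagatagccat
Igfbp4, chr11:99041094-99041243, plus strand: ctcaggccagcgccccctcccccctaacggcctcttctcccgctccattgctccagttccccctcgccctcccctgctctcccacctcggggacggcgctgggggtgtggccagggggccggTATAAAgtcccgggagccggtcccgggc
Igfbp7, chr5:77408046-77408195, minus strand: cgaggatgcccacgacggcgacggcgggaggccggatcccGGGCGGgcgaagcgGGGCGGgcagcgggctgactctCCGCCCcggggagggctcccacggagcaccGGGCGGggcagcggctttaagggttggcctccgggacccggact
Igfbp6, chr15:102144036-102144185, plus strand: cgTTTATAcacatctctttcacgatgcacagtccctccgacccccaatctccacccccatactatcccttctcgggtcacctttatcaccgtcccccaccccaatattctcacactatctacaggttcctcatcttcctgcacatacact

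The Igf1 stretch holds TGAATCA, 1 match to TGANTCA, starting 37 bases before the gene start. TGANTCA is a loose pattern for the AP-1 site that leaves the middle base open. The Igfbp4 stretch holds 1 TATA box (TATAAA) starting 28 bases before its gene start. The Igfbp7 stretch holds 4 GC boxes (GGGCGG), and the Igfbp6 stretch holds 1 TATA box on the opposite strand, 148 bases before the start. The RefSeq starts of Igf1, Igfbp6 and Igfbp7 used here differ from the first base of the GENCODE genes. Motifs were searched on both strands in windows of 300 bases, 250 before to 50 after each start, and motifs could overlap. Of 32817 such windows of all genes, 7.81% held a match to TGANTCA, 13.6% a TATA box and 35.6% a GC box. The windows of Igfbp3 and Igfbp5 held none of these 3 motifs, nor the E-box CACGTG (7.15% of windows) or the SMAD box pair GTCTAGAC (0.213%). A match is a match of letters and says nothing of binding.

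Total counts were 24519009 to 30571068 in FapKO hearts, 25798766 to 37287355 in FAPI hearts, 18474138 to 25927151 in MI hearts and 20827206 to 25943873 in sham hearts. Culture libraries held fewer, 4735337 to 6346015 in co-culture and 12871240 to 15650221 in 3D-culture. Fap, the targeted gene, had 1.79 to 2.36 CPM (counts relative to library size, adjusted by TMM, which aligns libraries on the bulk of their genes) in FapKO hearts, against 9.40 to 13.2 CPM in MI hearts and 2.71 to 3.86 CPM in sham hearts, and it was 6.47 to 10.4 CPM in FAPI hearts. FapKO hearts thus still had 46 to 68 Fap counts each, and as no source used here says which part of the gene was deleted, counts over the whole gene do not show how much intact transcript remained. Marker levels of the main heart cell types differed between the groups. Summed cardiomyocyte markers (10 genes) were 30800 to 38500 CPM in FapKO, 21600 to 39800 in FAPI, 6550 to 20200 in MI and 58700 to 68500 in sham hearts. Summed macrophage markers (8 genes) were 2290 to 4640 CPM in FapKO, 3720 to 7250 in FAPI, 5710 to 8090 in MI and 1490 to 1700 in sham hearts. Summed activated fibroblast markers (8 genes) were 1710 to 2330 CPM in FapKO, 2590 to 4350 in FAPI, 3510 to 5690 in MI and 759 to 957 in sham hearts, and no marker of these 3 lists was at 0 in any heart group. In such bulk tissue, fewer cells of a type and less RNA per cell cannot be told apart. Scaling by total counts in place of TMM moved the median of all genes in MI versus sham hearts to 1.23 on the log2 scale, against 0.14 with TMM, and the calls to 12663 higher and 2037 lower genes, against 6331 higher and 5452 lower with TMM.

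After infarction, 7 of the 9 genes rose and Igfbp5 and Igfbp6 did not pass the test. All 7 were without overlap between MI and sham hearts, where 69.1% of the 17064 genes tested passed in either direction, 37.1% passed as higher, 32.0% passed as lower and 67.5% did not overlap. The median log2 fold change of the 9 genes was 1.79, against 0.14 over all genes tested. Tests are edgeR's quasi-likelihood F test, with p-values adjusted by Benjamini and Hochberg's method over all genes and a threshold of 0.05, and errors of group means are SD over libraries. Beside this, 8 of 8 macrophage, 8 of 8 fibroblast and 8 of 8 activated fibroblast markers rose and 10 of 10 cardiomyocyte markers fell in MI versus sham hearts. Leukocyte and neutrophil markers rose too, 5 of 5 tested, as did 5 of 6 adipocyte markers, of which Adipoq was 76.9 ± 16.5 CPM in MI and 7.37 ± 3.01 CPM in sham hearts, while the other, Fabp4, fell. Of 8 endothelial markers 0 rose and 4 fell, and of 8 mural (vessel wall) markers 4 rose and 3 fell. The part of these cells in the rise of the 7 genes was not tested.

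**Figure D1:**
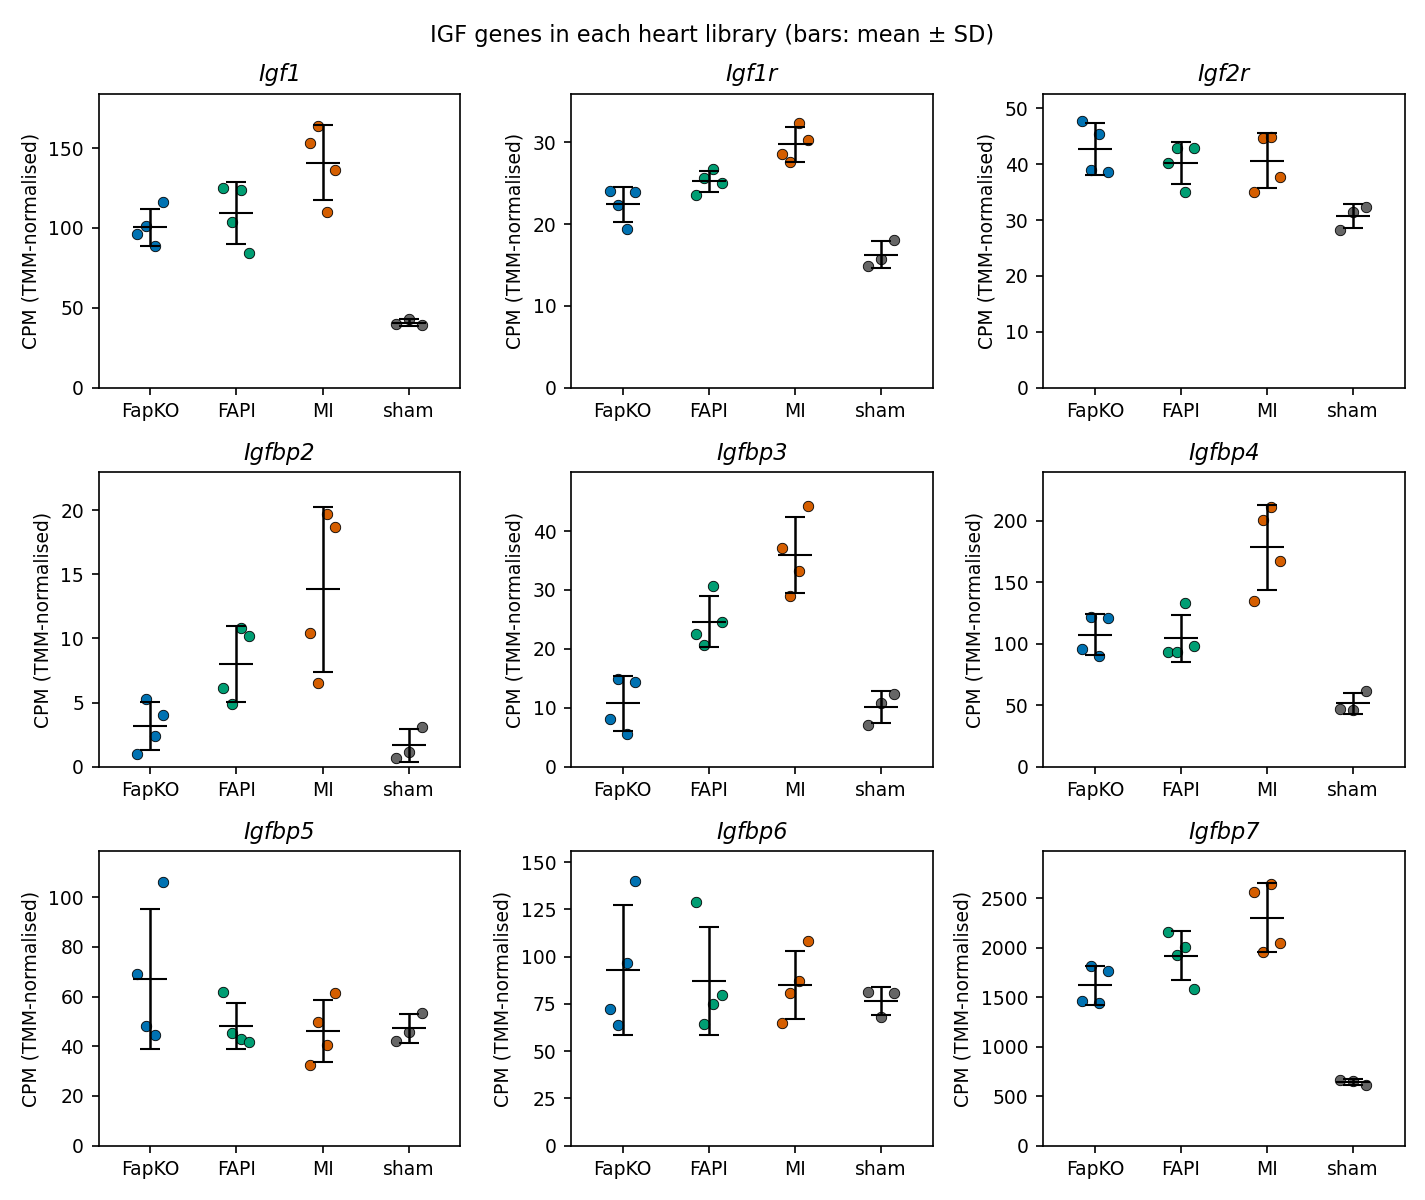
CPM of the 9 IGF genes in each heart library (points, y axis from 0), with the mean and SD of each group (bars), for FapKO, FAPI, MI and sham hearts. Igf1, Igfbp4 and Igfbp7 were above all sham hearts in every infarcted heart, Igfbp2 and Igfbp3 of FapKO hearts overlapped sham hearts, and Igfbp5 and Igfbp6 overlapped in all 4 groups.

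Igf1, the ligand, had 96.1, 101, 88.6 and 116 CPM in FapKO hearts, 125, 104, 124 and 84.3 CPM in FAPI hearts, 153, 164, 110 and 136 CPM in MI hearts and 39.6, 43.0 and 39.1 CPM in sham hearts. Every infarcted heart was above every sham heart, and the 3 infarcted groups overlapped each other. Igf1 averaged 141 ± 23.3 CPM in MI hearts and 40.6 ± 2.15 CPM in sham hearts (n = 4 and 3), a log2 fold change of 1.80 (SE 0.161 and edgeR adjusted p = 6.3e-08).

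Igf1r, the signalling receptor, had 24.0, 22.3, 19.4 and 23.9 CPM in FapKO hearts, 23.5, 25.6, 26.7 and 25.0 CPM in FAPI hearts, 28.6, 27.6, 32.4 and 30.3 CPM in MI hearts and 14.9, 15.7 and 18.1 CPM in sham hearts. MI hearts were the highest group and overlapped none of the others. The MI versus sham log2 fold change was 0.87 (SE 0.104 and edgeR adjusted p = 1.47e-06). Igf2r, the clearance receptor, ranged from 38.6 to 47.8 CPM in FapKO, 35.0 to 43.0 in FAPI, 35.1 to 44.9 in MI and 28.3 to 32.3 in sham hearts. Its rise was the smallest of the 7 that passed, with a log2 fold change of 0.40 (SE 0.118 and edgeR adjusted p = 0.00609) for MI versus sham.

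Igfbp2, a binding protein known from fetal tissues, had 0.987, 5.25, 2.36 and 4.06 CPM in FapKO hearts, 6.13, 4.89, 10.8 and 10.2 CPM in FAPI hearts, 10.4, 6.50, 19.7 and 18.7 CPM in MI hearts and 0.678, 1.18 and 3.10 CPM in sham hearts. It rested on 11 to 45 counts in sham hearts, and every MI heart was above every sham and FapKO heart. It had the largest fold change of the 9 genes, with 13.8 ± 6.40 CPM in MI and 1.65 ± 1.28 CPM in sham hearts, a log2 fold change of 3.08 (SE 0.581 and edgeR adjusted p = 0.000186). Without sham replicate 3, its highest sham heart, that value was 3.89.

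Igfbp3, a carrier that also binds the acid-labile subunit in blood, had 8.11, 14.9, 5.49 and 14.4 CPM in FapKO hearts, 22.6, 20.7, 30.7 and 24.5 CPM in FAPI hearts, 37.1, 29.0, 33.3 and 44.3 CPM in MI hearts and 7.15, 10.8 and 12.4 CPM in sham hearts. FapKO hearts spanned the sham range and lay below every FAPI and MI heart. Its MI versus sham log2 fold change was 1.83 (SE 0.294 and edgeR adjusted p = 3.78e-05).

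Igfbp4, the main substrate of PAPP-A, had 95.8, 122, 89.9 and 121 CPM in FapKO hearts, 93.0, 93.4, 133 and 98.3 CPM in FAPI hearts, 135, 201, 211 and 167 CPM in MI hearts and 47.1, 46.4 and 61.6 CPM in sham hearts. Every MI heart was above every FapKO, FAPI and sham heart, though MI replicate 1 at 135 CPM was close to FAPI replicate 3 at 133 CPM. Its log2 fold change of MI versus sham was 1.79 (SE 0.186 and edgeR adjusted p = 3.26e-07).

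Igfbp7 was by far the most abundant, with 1460, 1820, 1440 and 1760 CPM in FapKO hearts, 2160, 1930, 2010 and 1580 CPM in FAPI hearts, 2560, 1960, 2640 and 2050 CPM in MI hearts and 667, 654 and 610 CPM in sham hearts. FapKO hearts lay below every MI heart, FAPI hearts overlapped both, and all sham hearts were lowest. Its MI versus sham log2 fold change was 1.84 (SE 0.166 and edgeR adjusted p = 6.73e-08).

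Igfbp5, a matrix-bound binding protein, had 69.2, 48.2, 44.6 and 106 CPM in FapKO hearts, 61.7, 45.5, 43.0 and 41.9 CPM in FAPI hearts, 32.6, 49.7, 40.4 and 61.5 CPM in MI hearts and 42.3, 45.8 and 53.6 CPM in sham hearts. Igfbp6 had 72.1, 63.6, 96.4 and 140 CPM in FapKO hearts, 129, 64.6, 74.8 and 79.9 CPM in FAPI hearts, 64.9, 80.5, 87.1 and 108 CPM in MI hearts and 81.1, 68.1 and 80.8 CPM in sham hearts. Neither gene separated any pair of groups. For MI versus sham the log2 fold changes were -0.04 for Igfbp5 (SE 0.262 and edgeR adjusted p = 0.909) and 0.15 for Igfbp6 (SE 0.259 and edgeR adjusted p = 0.619). Relative to the median of all genes they were -0.18 for Igfbp5 and 0.01 for Igfbp6 with TMM, and -0.17 and 0.01 with total-count scaling. Scaled by total counts and not set against that median, Igfbp5 was higher in MI hearts by 1.06 on the log2 scale (edgeR adjusted p = 0.00381) and Igfbp6 by 1.23 (edgeR adjusted p = 0.000752).

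The libraries with the most Igfbp5 and Igfbp6 in each infarcted group were also those with the most epicardial and mesothelial markers. Summed over 8 marker genes, including Wt1, Upk3b and Msln, these were 37.2, 39.4, 54.9 and 206 CPM in FapKO replicates 1 to 4, 271, 49.2, 72 and 65.9 CPM in FAPI replicates 1 to 4, 100, 62.1, 89.3 and 144 CPM in MI replicates 1 to 4 and 76.3, 45.4 and 74.7 CPM in sham replicates 1 to 3. FapKO replicate 4, FAPI replicate 1 and MI replicate 4 were thus the highest of their groups for both genes and for the summed markers. Below these libraries the orders differed. MI replicate 1 was next for markers and lowest for Igfbp5 (32.6 CPM) and Igfbp6 (64.9 CPM). FapKO replicate 1 was lowest for markers and next for Igfbp5 (69.2 CPM), while FapKO replicate 3 was next both for markers and for Igfbp6 (96.4 CPM). In sham hearts replicate 1 was highest for the markers and for Igfbp6, and replicate 3 for Igfbp5. No marker was at 0 in any heart group, and 1 of the 8 rose in MI versus sham, 0 rose or fell in FAPI versus MI and 0 in FapKO versus MI. The part of this tissue in the 2 genes' levels was not tested.

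**Figure D2:**
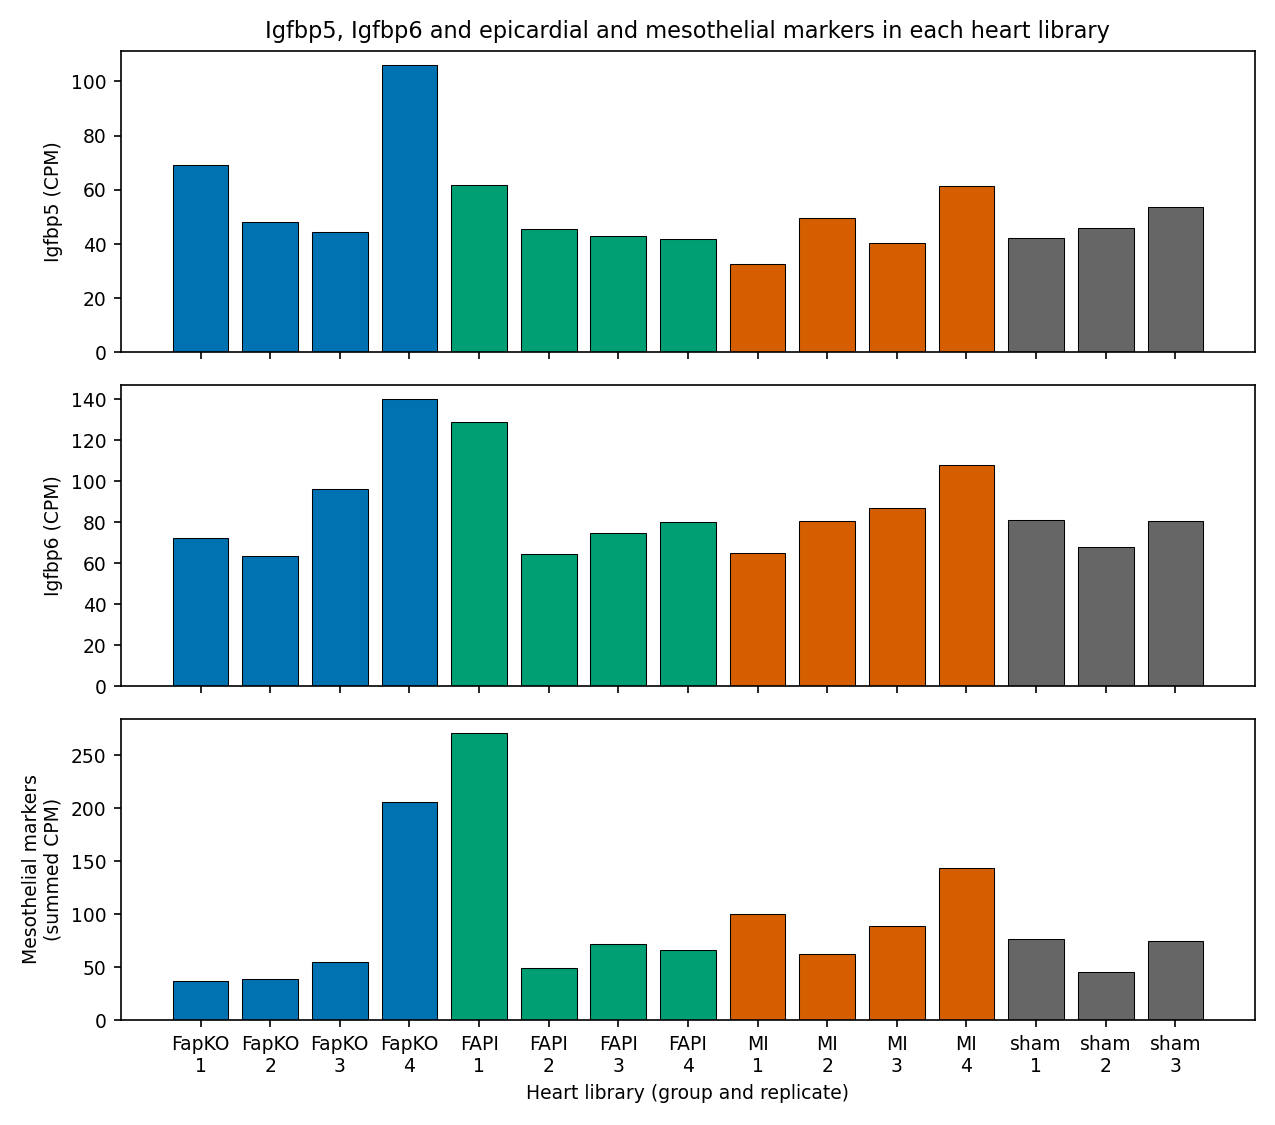
Igfbp5 (top, CPM), Igfbp6 (middle, CPM) and the summed CPM of 8 epicardial and mesothelial markers (bottom) in each heart library, with bars from 0 and colours by group (FapKO, FAPI, MI, sham). FapKO replicate 4 (206 CPM of markers), FAPI replicate 1 (271 CPM) and MI replicate 4 (144 CPM) are the tallest bars of their groups in all 3 panels.

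In infarcted FapKO hearts, 6 of the 9 genes were lower than in MI hearts and none was higher. The 6 were Igf1, Igf1r, Igfbp2, Igfbp3, Igfbp4 and Igfbp7. MI versus sham and FapKO versus MI share their 4 MI hearts, on opposite sides, so opposite signs in the 2 comparisons are not independent of each other. Of all genes, 51.0% passed in either direction in this comparison, 26.0% passed as lower, 25.0% as higher and 45.4% did not overlap between groups. Of the 6, all but Igf1 were without overlap. The median log2 fold change of the 9 genes was -0.49, against -0.08 over all genes.

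Igfbp2 and Igfbp3 had the largest differences between FapKO and MI hearts. Igfbp2 averaged 3.16 ± 1.87 CPM in FapKO hearts and 13.8 ± 6.40 CPM in MI hearts (n = 4 each), a log2 fold change of -2.10 (SE 0.451 and edgeR adjusted p = 0.00101). Igfbp3 averaged 10.7 ± 4.67 CPM in FapKO hearts and 35.9 ± 6.48 CPM in MI hearts, a log2 fold change of -1.74 (SE 0.258 and edgeR adjusted p = 4.24e-05). Igfbp4 averaged 107 ± 16.9 CPM in FapKO and 179 ± 34.3 CPM in MI hearts, with a log2 fold change of -0.73 (SE 0.162 and edgeR adjusted p = 0.00129). The other 3 differences were under 1.5-fold. The log2 fold changes were -0.50 for Igfbp7 (SE 0.145 and edgeR adjusted p = 0.00825), -0.49 for Igf1 (SE 0.140 and edgeR adjusted p = 0.00797) and -0.41 for Igf1r (SE 0.0922 and edgeR adjusted p = 0.00155). Igf2r had a log2 fold change of 0.07 (SE 0.107 and edgeR adjusted p = 0.60). Igfbp5 was 67.0 ± 28.1 CPM in FapKO and 46.1 ± 12.5 CPM in MI hearts, a log2 fold change of 0.54 (SE 0.241 and edgeR adjusted p = 0.0722), which passed without FapKO replicate 2 (0.67, edgeR adjusted p = 0.0362), without FapKO replicate 3 (0.69, 0.0286) and without MI replicate 4 (0.71, 0.0302). Without FapKO replicate 4, its highest heart, it was 0.23 (edgeR adjusted p = 0.374). Igfbp5 also passed as higher with no filter on low counts (0.54, edgeR adjusted p = 0.0143) and with DESeq2 (0.56, DESeq2 adjusted p = 0.0441).

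Beside the fall of these 6 genes, cell markers also differed between FapKO and MI hearts. In FapKO versus MI hearts, 8 of 8 macrophage markers, 8 of 8 activated fibroblast markers and 5 of 8 fibroblast markers fell, and 10 of 10 cardiomyocyte markers rose. Leukocyte and neutrophil markers fell, 5 of 5 tested, as did 4 of 6 adipocyte markers, with 1 higher. Of 8 endothelial markers 4 rose and 0 fell, and of 8 mural markers 3 rose and 3 fell. The order of FapKO hearts by macrophage markers, with 4640 CPM in replicate 2, 3820 in replicate 4, 3300 in replicate 1 and 2290 in replicate 3, was also their order by Igfbp3, with 14.9, 14.4, 8.11 and 5.49 CPM. In the same order of hearts, Igfbp4 had 122, 121, 95.8 and 89.9 CPM and Igfbp7 1820, 1760, 1460 and 1440 CPM, which also matched. Igfbp2 did not match, with 5.25, 4.06, 0.987 and 2.36 CPM. Nor did Igf1, with 101, 116, 96.1 and 88.6 CPM, or Igf1r, with 22.3, 23.9, 24.0 and 19.4 CPM. In the other infarcted groups the order by macrophage markers did not match that by Igfbp3, Igfbp4 or Igfbp7. FAPI replicates 3, 1, 2 and 4, from most to least macrophage markers, had 30.7, 22.6, 20.7 and 24.5 CPM of Igfbp3, and MI replicates 1, 4, 2 and 3 had 37.1, 44.3, 29.0 and 33.3 CPM. The part of these cells in the fall of the 6 genes was not tested.

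**Figure D3:**
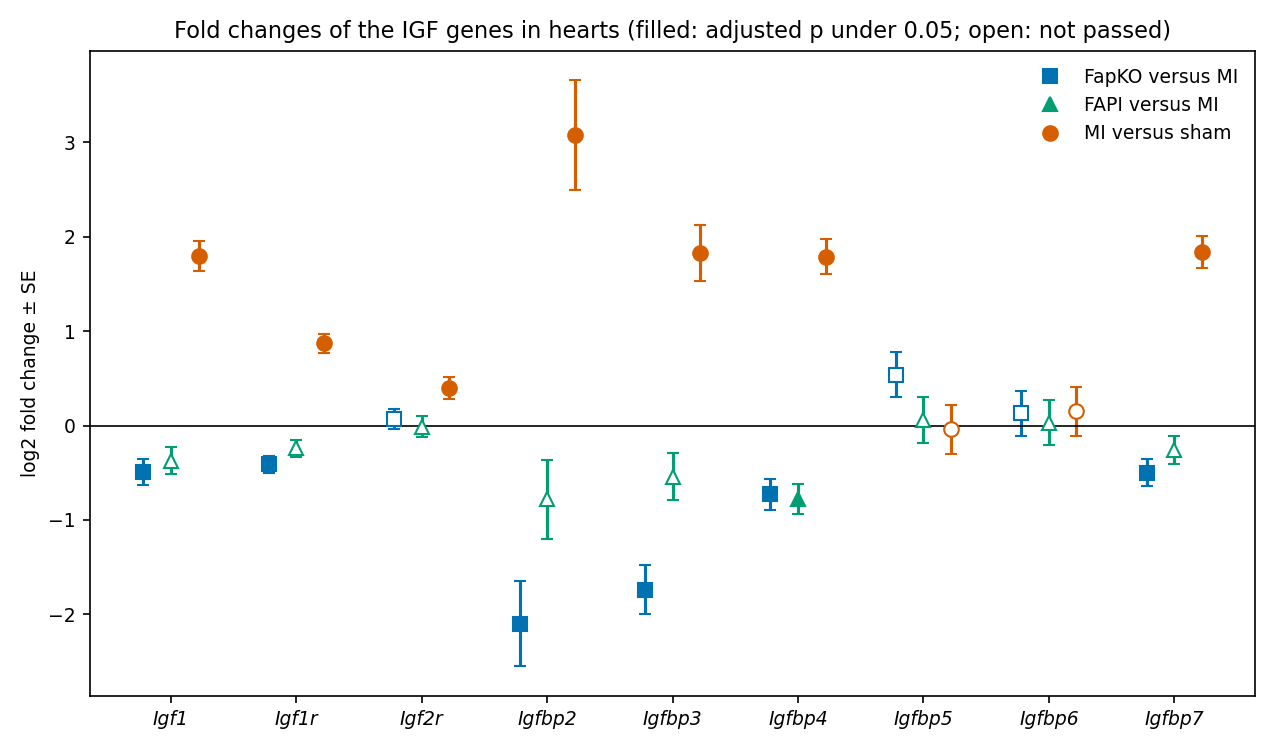
Log2 fold change ± SE (y axis) of each of the 9 IGF genes (x axis) in FapKO versus MI (squares), FAPI versus MI (triangles) and MI versus sham hearts (circles), with filled symbols for edgeR adjusted p under 0.05. In FapKO versus MI 6 symbols are filled, all below 0, and in FAPI versus MI that of Igfbp4 alone is filled, at -0.78.

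With FAPI, 1 of the 9 genes passed the test against MI hearts. Igfbp4 was lower, at 104 ± 19.0 CPM in FAPI hearts and 179 ± 34.3 CPM in MI hearts (n = 4 each), a log2 fold change of -0.78 (SE 0.162 and edgeR adjusted p = 0.00223). In this comparison 29.8% of all genes passed, 11.9% as lower and 17.9% as higher, and 26.1% did not overlap. Igfbp4 and Igf1r did not overlap between the groups, and Igf1r missed the threshold, with a log2 fold change of -0.24 (SE 0.0917 and edgeR adjusted p = 0.0609). Igf1 was also just outside, at -0.37 (SE 0.139 and edgeR adjusted p = 0.0573), and passed without MI replicate 3 (-0.47, edgeR adjusted p = 0.0131), without FAPI replicate 1 (-0.44, 0.039) and without FAPI replicate 3 (-0.43, 0.0392). Igfbp2 had a log2 fold change of -0.78 (SE 0.419 and edgeR adjusted p = 0.174), Igfbp3 of -0.54 (SE 0.248 and edgeR adjusted p = 0.11) and Igfbp7 of -0.26 (SE 0.145 and edgeR adjusted p = 0.187). In FAPI versus MI hearts 5 of 8 macrophage markers, 3 of 8 fibroblast markers and 1 of 8 activated fibroblast markers fell and 10 of 10 cardiomyocyte markers rose. Of adipocyte markers 5 of 6 fell, with Adipoq at 8.13 ± 6.70 CPM in FAPI and 76.9 ± 16.5 CPM in MI hearts, and of leukocyte and neutrophil markers 4 of 5 tested fell, with S100a8 at 35.6 ± 9.36 CPM in FAPI and 349 ± 276 CPM in MI hearts. Of 8 endothelial markers 0 rose and 1 fell, and of 8 mural markers 3 rose and 3 fell. The part of these cells in the fall of Igfbp4 was not tested. FAPI replicate 3, with the most Igfbp4 of its group, also had the most macrophage markers, 7250 CPM against 3720 to 5380 CPM in the other FAPI hearts. In MI hearts the order was the reverse, with 8090, 7520, 6550 and 5710 CPM of macrophage markers in the replicates that had 135, 167, 201 and 211 CPM of Igfbp4.

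The direct comparison of the 2 infarcted groups found 1 difference. Igfbp3 was lower in FapKO than in FAPI hearts, at 10.7 ± 4.67 and 24.6 ± 4.32 CPM, with no overlap and a log2 fold change of -1.20 (SE 0.256 and edgeR adjusted p = 0.0065). Of all genes, 13.2% passed in this comparison, 7.05% as lower and 6.12% as higher, and 18.6% did not overlap. Igfbp2 had a log2 fold change of -1.33 (SE 0.451) and just missed the threshold, with an edgeR adjusted p of 0.0622. Without FapKO replicate 2, its highest FapKO heart, Igfbp2 passed (-1.69, edgeR adjusted p = 0.0345). Igfbp4, lower than in MI hearts in both groups, had a log2 fold change of 0.04 between them (SE 0.162 and edgeR adjusted p = 0.897). The comparisons of FapKO and of FAPI with MI share their 4 MI hearts, so the 2 sets of values are not independent. Beside these differences, 5 of 8 macrophage and 6 of 8 activated fibroblast markers fell in FapKO versus FAPI hearts. So did 1 of 8 epicardial and mesothelial markers and 1 of 5 leukocyte and neutrophil markers tested. In the same comparison 4 of 6 adipocyte, 3 of 8 endothelial, 1 of 8 mural and 1 of 10 cardiomyocyte markers rose. The part of these cells was not tested.

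Against sham hearts, 5 of the 9 genes were still higher in FapKO hearts and 7 in FAPI hearts. Of all genes, 39.5% passed in FapKO versus sham hearts, 19.2% as higher and 20.3% as lower, and 46.8% did not overlap. In FAPI versus sham hearts 55.8% passed, 29.2% as higher and 26.5% as lower, and 57.5% did not overlap. Igf1 was 2.47-fold, Igfbp7 2.52-fold and Igfbp4 2.07-fold the sham level in FapKO hearts, with edgeR adjusted p of 2.45e-05, 2.56e-05 and 0.000403. Igfbp3 did not pass, with 10.7 ± 4.67 CPM in FapKO and 10.1 ± 2.69 CPM in sham hearts, a log2 fold change of 0.09 (SE 0.289 and edgeR adjusted p = 0.817). Igfbp2 had a log2 fold change of 0.98 with a wide error (SE 0.608 and edgeR adjusted p = 0.212), and 1.79 (edgeR adjusted p = 0.0725) without sham replicate 3. In FAPI hearts Igf1 was 2.69-fold, Igfbp7 2.98-fold, Igfbp3 2.44-fold and Igfbp2 4.93-fold the sham level, and all 4 passed. Igf2r also passed in FAPI versus sham hearts (0.39, edgeR adjusted p = 0.00987) and missed the threshold without sham replicate 1 (0.34, edgeR adjusted p = 0.0543), and Igfbp2 moved to 3.12 on the log2 scale without sham replicate 3, against 2.30 with it. In FapKO versus sham hearts 7 of 8 fibroblast, 7 of 8 activated fibroblast and 5 of 8 macrophage markers were also higher. In FAPI versus sham hearts these were 8, 7 and 7 of 8. Of 10 cardiomyocyte markers 4 were lower and 0 higher in FapKO hearts, and 5 lower and 1 higher in FAPI hearts. Of 8 endothelial markers 0 were lower in FapKO and 4 in FAPI hearts, and 0 were higher in either. Mural markers were mixed, with 3 higher and 3 lower in FapKO and 4 and 3 in FAPI hearts. The part of these cells in these differences was not tested.

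Per kilobase of exon, Igfbp7 led in every group. It averaged 1340 ± 162 CPM per kb in FapKO, 1590 ± 203 in FAPI, 1900 ± 285 in MI and 532 ± 24.5 in sham hearts. Igfbp6 and then Igfbp4 followed in all 4 heart groups, each without overlap with its neighbour in the order, at 76.5 ± 15.9 and 40.4 ± 7.77 CPM per kb in MI hearts and 68.9 ± 6.70 and 11.7 ± 1.94 in sham hearts. Igf1r was last in FapKO, FAPI and MI hearts and Igfbp2 was last in sham hearts. In both FapKO and sham hearts these 2 genes overlapped. In MI hearts Igf1, Igfbp3, Igfbp5, Igfbp2 and Igf2r followed Igfbp4, and each overlapped the next. These orders rest on division by exon length, which assumes reads along the whole transcript, and that was not checked. Undivided, MI hearts averaged 2300 CPM of Igfbp7, 179 of Igfbp4, 141 of Igf1 and 85.0 of Igfbp6. Sham hearts averaged 644 CPM of Igfbp7, 76.7 of Igfbp6 and 51.7 of Igfbp4.

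The make-up of the binding proteins followed from these levels. Of the Igfbp2 to Igfbp7 level per kb, Igfbp7 held 91.5 ± 1.98% in FapKO, 92.9 ± 1.17% in FAPI, 92.9 ± 1.73% in MI and 85.2 ± 1.70% in sham hearts, and the range of sham hearts, 83.3 to 86.6%, lay below the others. Igfbp6 held 5.71 ± 1.84% in FapKO, 4.55 ± 1.17% in FAPI, 3.82 ± 1.09% in MI and 11.0 ± 1.12% in sham hearts. Without Igfbp7, Igfbp4 held 20.4 ± 5.38% of the rest in FapKO, 13.3 to 25.0% in FAPI, 28.4 ± 4.56% in MI and 12.6 ± 1.18% in sham hearts. Igfbp6 held 66.4 ± 7.54% of that rest in FapKO, 63.2 ± 7.41% in FAPI, 53.1 ± 2.83% in MI and 74.5 ± 3.32% in sham hearts. These shares were not tested, and they rest on the division by exon length.

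**Figure D4:**
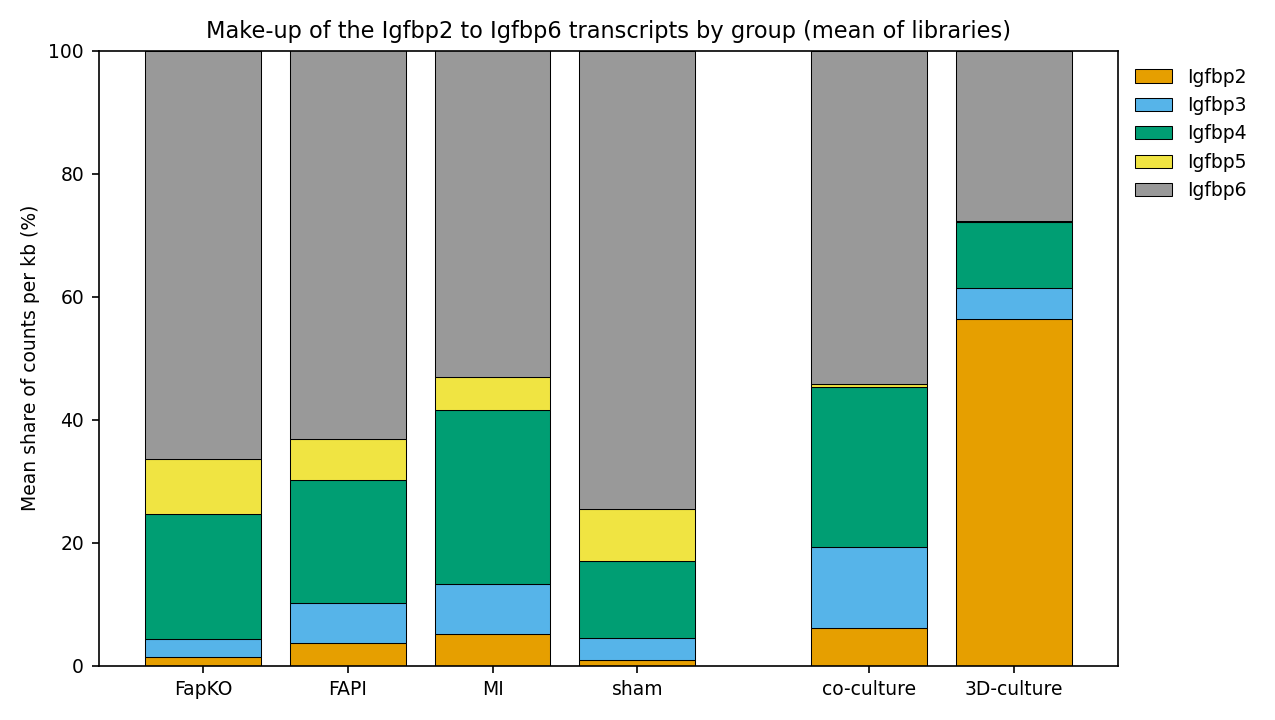
Mean share of the level per kb (y axis, %) held by each of Igfbp2 to Igfbp6, without Igfbp7, in FapKO, FAPI, MI and sham hearts and, apart, in co-culture and 3D-culture fibroblasts. By this measure, which rests on division by exon length, Igfbp6 is the largest part in all heart groups (53.1% in MI to 74.5% in sham). Igfbp2 is the largest in 3D-culture (56.3%).

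For each gene the 2 genes with the closest pattern over the 15 hearts were taken from 6836 genes of at least 10 CPM, by the root mean square difference of centred log2 CPM. Igf1 was closest to Trps1, a zinc finger factor, at 0.136, and to Vim, the intermediate filament of mesenchymal cells, at 0.143, where the SD of Igf1 itself was 0.675. Igfbp4 was closest to Zeb2, a zinc finger repressor, at 0.181 and to Marcks at 0.184 (own SD 0.661), and Igfbp7 to Pde1a and Naalad2 at 0.171 each (own SD 0.697). Igfbp3 was closest to BE692007 at 0.269 and to Sla, an adaptor of blood cells, at 0.297 (own SD 0.924), and Igfbp2 to Serpinb1a at 0.483 and Sprr1a at 0.524 (own SD 1.46). Igf1r was closest to Cpd at 0.0941 and Crim1 at 0.101, and Igf2r to Rhoq at 0.101 and Eif3a at 0.104. Igfbp6 was closest to Ptgs1 at 0.205 and Add3 at 0.262 (own SD 0.351). Igfbp5 was closest to Add3 at 0.288 and to Igfbp6 at 0.297 (own SD 0.404), the one case in which a member was among the closest genes of another.

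Beyond the 9 genes, 43 other genes of the pathway were listed, of which 38 were tested in hearts. Of these, 11 were higher and 18 lower in MI than in sham hearts, 8 were higher and 9 lower in FapKO than in MI hearts, and 5 were higher and 3 lower in FAPI than in MI hearts. Over all genes the shares were 37.1% higher and 32.0% lower in MI versus sham and 25.0% and 26.0% in FapKO versus MI hearts. In FAPI versus MI hearts they were 17.9% and 11.9%. The counts rest on the scaling. With total-count scaling they were 31 higher and 2 lower in MI versus sham, 2 and 28 in FapKO versus MI and 2 and 24 in FAPI versus MI hearts. Over all 17064 genes tested, that scaling called 12663 higher and 2037 lower in MI versus sham. It called 2076 higher and 10455 lower in FapKO versus MI, and 1448 and 8485 in FAPI versus MI hearts. The second ligand Igf2 was nearly absent, with 0 to 8 counts per heart and 0 counts in every culture library, which allows up to 0.634 CPM in the shallowest of them (3 counts, counting error only). Igfbp1, the liver binding protein, had 0 to 2 counts per heart. Neither passed the filter on low counts.

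The binding protein proteases Pappa, Adam9 and Adam12 were higher in MI than in sham hearts and lower in FapKO than in MI hearts. Of 6 tested genes of the proteases and their inhibitors, 4 rose in MI versus sham hearts (these 3 and the inhibitor Stc2) and 0 fell, and 4 fell in FapKO versus MI hearts (these 3 and the protease Htra1) and 0 rose. Over all genes 37.1% were higher in MI versus sham and 26.0% lower in FapKO versus MI hearts. With total-count scaling all 6 were higher in MI versus sham and all 6 lower in FapKO versus MI hearts. Of all 17064 genes tested, that scaling called 12663 higher in MI versus sham and 10455 lower in FapKO versus MI hearts. Pappa, the gene of PAPP-A, was 5.25 ± 1.83 CPM in FapKO, 9.69 ± 3.90 in FAPI, 12.8 ± 2.62 in MI and 1.97 ± 0.424 in sham hearts. It rose in MI versus sham (log2 2.71, SE 0.354, edgeR adjusted p = 4.16e-06), fell in FapKO versus MI (log2 -1.29, SE 0.271, edgeR adjusted p = 0.00086) and did not pass in FAPI versus MI (log2 -0.41, edgeR adjusted p = 0.257). Adam12, a metalloprotease that cuts IGFBP3 and IGFBP5, was 5.78 ± 1.85 CPM in FapKO, 6.85 ± 2.93 in FAPI, 15.2 ± 3.81 in MI and 1.94 ± 0.279 in sham hearts. It fell against MI both in FapKO (log2 -1.40, edgeR adjusted p = 0.000617) and in FAPI hearts (log2 -1.15, edgeR adjusted p = 0.00541). Adam9, of the same family, fell in FapKO versus MI (log2 -0.72, edgeR adjusted p = 0.000216). Stc1, a stanniocalcin that inhibits PAPP-A, was 4.89 ± 0.901 CPM in FapKO, 11.0 ± 2.28 in FAPI and 6.02 ± 1.67 in MI hearts, lower in FapKO than in FAPI (log2 -1.16, edgeR adjusted p = 0.00114) and higher in FAPI than in MI hearts (log2 0.86, edgeR adjusted p = 0.00283).

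Of 8 other receptors and adaptors, 5 were lower and 2 higher in MI than in sham hearts, and of 18 genes of the PI3K and AKT pathway 9 were lower and 4 higher, where 32.0% of all genes were lower and 37.1% higher. With total-count scaling this turned to 1 lower and 6 higher, and to 0 lower and 15 higher. Of all 17064 genes tested, that scaling called 2037 lower and 12663 higher. Grb14, an adaptor that inhibits the insulin receptor, was 87.8 ± 11.1 CPM in FapKO, 56.7 ± 11.2 in FAPI, 30.9 ± 5.93 in MI and 175 ± 14.3 in sham hearts. Its log2 fold changes were -2.50 for MI versus sham (edgeR adjusted p = 3.69e-09), 1.51 for FapKO versus MI (edgeR adjusted p = 1.42e-06), 0.88 for FAPI versus MI (edgeR adjusted p = 0.000575) and 0.63 for FapKO versus FAPI (edgeR adjusted p = 0.0116). Akt2, an AKT kinase, fell in MI versus sham (log2 -1.08, edgeR adjusted p = 9.73e-08), and was at 0.00 with total-count scaling (edgeR adjusted p = 0.994). Igfals, the acid-labile subunit that carries IGF1 with IGFBP3, was scarce at 2.63 ± 0.719 CPM in FapKO, 1.19 ± 0.756 in FAPI, 0.892 ± 0.236 in MI and 3.22 ± 0.794 in sham hearts. It fell in MI versus sham (log2 -1.87, edgeR adjusted p = 0.000286) and rose in FapKO versus MI (log2 1.58, edgeR adjusted p = 0.00101). Jak2, the kinase of the growth hormone receptor, rose in MI versus sham (log2 1.06, edgeR adjusted p = 1.12e-06) and fell in FapKO versus MI (log2 -0.59, edgeR adjusted p = 0.000204). The group means of Grb14 and Igfals, lowest in MI, then FAPI, then FapKO and highest in sham hearts, had the order of the summed cardiomyocyte markers, and the part of those cells was not tested.

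In cultured fibroblasts, 5 of the 6 binding proteins were higher in co-culture than in 3D-culture, and Igfbp2, Igf1r and Igf2r were lower. Of 12293 genes tested, 59.8% passed, 30.3% as higher and 29.5% as lower, and 67.0% did not overlap between groups. Of the 8 genes that passed, all but Igf2r were without overlap. The median log2 fold change of the 9 genes was 1.68, against -0.06 over all genes.

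**Figure D5:**
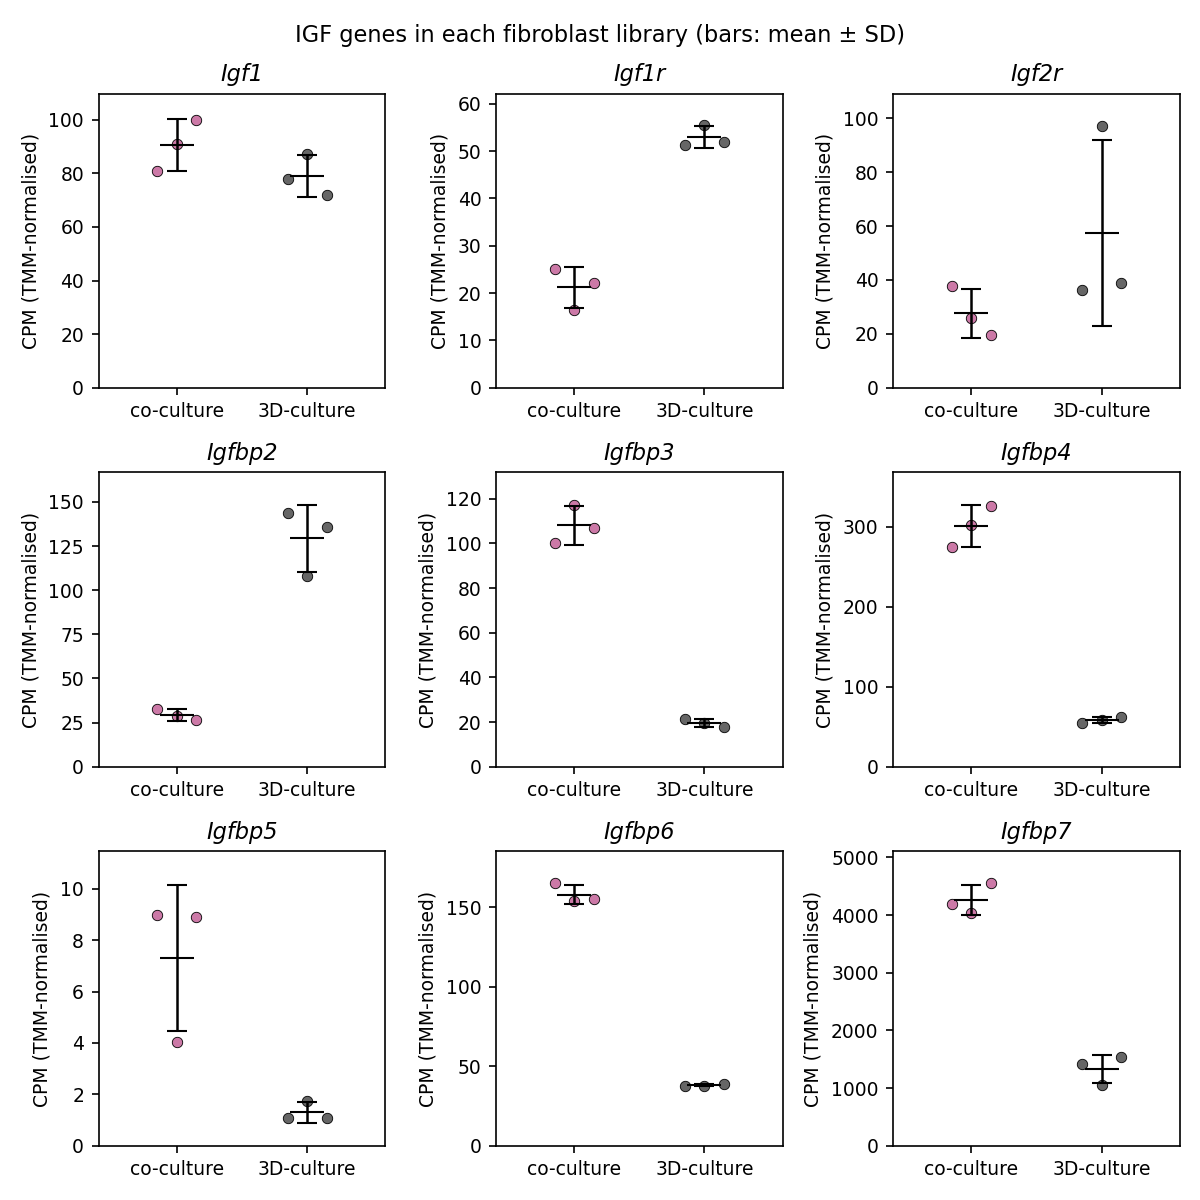
CPM of the 9 IGF genes in each culture library (points, y axis from 0) with the mean and SD (bars), for co-culture and 3D-culture fibroblasts. Igfbp3 to Igfbp7 are higher in all 3 co-culture libraries, Igfbp2 and Igf1r are lower in all 3, Igf2r of 1 co-culture library lies within the 3D-culture range, and Igf1 overlaps.

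Igfbp3 had 100, 117 and 107 CPM in co-culture and 21.4, 19.4 and 17.8 CPM in 3D-culture, a log2 fold change of 2.47 (SE 0.127 and edgeR adjusted p = 1.49e-06). Igfbp4 had 274, 302 and 326 CPM in co-culture and 54.2, 58.8 and 62.4 CPM in 3D-culture, a log2 fold change of 2.36 (SE 0.118 and edgeR adjusted p = 1.39e-06). Igfbp6 had 165, 154 and 155 CPM in co-culture and 37.6, 37.6 and 38.6 CPM in 3D-culture, a log2 fold change of 2.06 (SE 0.103 and edgeR adjusted p = 1.39e-06). The 3 genes were more than 4-fold higher with libraries of each group close together. Igfbp7 had 4200, 4040 and 4550 CPM in co-culture and 1410, 1050 and 1530 CPM in 3D-culture, a log2 fold change of 1.68 (SE 0.156 and edgeR adjusted p = 2.99e-05). Igfbp5 was scarce, with 8.97, 4.02 and 8.91 CPM in co-culture and 1.06, 1.75 and 1.07 CPM in 3D-culture, from 18 to 51 and 18 to 22 counts. Its log2 fold change was 2.52 with a wide error (SE 0.366 and edgeR adjusted p = 0.000402).

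Igfbp2 was the one binding protein that was lower, with 32.7, 28.6 and 26.2 CPM in co-culture and 144, 108 and 136 CPM in 3D-culture. The log2 fold change was -2.15 (SE 0.15 and edgeR adjusted p = 6.48e-06). Without Igfbp7, it held 6.05 ± 0.694% of the binding protein level per kb in co-culture and 56.3 ± 3.71% in 3D-culture, where it was the second most abundant of the 9 genes per kb after Igfbp7. Igf1r had 25.0, 16.5 and 22.2 CPM in co-culture and 51.3, 55.6 and 52.0 CPM in 3D-culture, a log2 fold change of -1.32 (SE 0.157 and edgeR adjusted p = 0.000125). Igf2r had 37.6, 25.7 and 19.6 CPM in co-culture and 36.1, 97.2 and 39.0 CPM in 3D-culture. The groups overlapped and 3D-culture replicate 2 stood above the rest. Its log2 fold change was -1.06 (SE 0.396 and edgeR adjusted p = 0.0434). It was -0.49 (edgeR adjusted p = 0.0354) without 3D-culture replicate 2, and it missed the threshold without co-culture replicate 2 (-1.02, edgeR adjusted p = 0.118) and without co-culture replicate 3 (-0.86, edgeR adjusted p = 0.158). Igf1, the ligand, had 80.7, 91.0 and 100 CPM in co-culture and 78.0, 87.4 and 71.9 CPM in 3D-culture, with a log2 fold change of 0.20 (SE 0.127 and edgeR adjusted p = 0.207).

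Markers of cell types also differed between the cultures. The sorting marker Pdgfra averaged 105 ± 8.36 CPM in co-culture and 34.4 ± 5.55 CPM in 3D-culture. Epicardial and mesothelial markers summed to 27.9 to 33.8 CPM in co-culture and 141 to 173 CPM in 3D-culture, with 5 of 6 tested lower and Krt8 and Krt18 at 0 in co-culture. Macrophage markers summed to 356 to 466 CPM in co-culture and 721 to 1200 CPM in 3D-culture, with 7 of 8 lower and 1 higher and none at 0. Activated fibroblast markers summed to 1780 to 1970 CPM in co-culture and 3520 to 4490 CPM in 3D-culture, with 7 of 8 lower and 1 higher and none at 0. Endothelial markers summed to 19.9 to 23.2 CPM in co-culture and 16.5 to 18.6 CPM in 3D-culture, where Pecam1, the gene of CD31, averaged 0.382 and 1.05 CPM. Fibroblast markers summed to 7660 to 8030 CPM in co-culture and 4580 to 10700 CPM in 3D-culture, with 5 of 8 higher. Adipocyte markers summed to 206 to 254 CPM in co-culture and 19.6 to 25.1 CPM in 3D-culture, mostly Fabp4, with 2 of 3 tested higher, and 3 of 4 tested mural markers were higher and 1 lower. Cardiomyocyte markers summed to 156 to 170 CPM in co-culture and 126 to 183 CPM in 3D-culture, nearly all of it Tnnt2, at 163 ± 7.52 and 159 ± 29.9 CPM, whereas Myh6 had 0 counts in co-culture and 0 to 1 in 3D-culture. The part of these cells in the IGF genes' differences was not tested.

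Of 37 other pathway genes tested in culture, 10 were higher and 12 lower in co-culture, near the shares over all genes of 30.3% higher and 29.5% lower. Shc1, an adaptor of receptor tyrosine kinases, was 128 ± 7.31 CPM in co-culture and 37.1 ± 3.91 CPM in 3D-culture (log2 1.79, SE 0.122, edgeR adjusted p = 5.38e-06). Irs1, a docking protein of IGF1R, was 10.2 ± 0.662 CPM in co-culture and 40.0 ± 26.6 CPM in 3D-culture (log2 -1.97, SE 0.427, edgeR adjusted p = 0.0037). Among the proteases, Pappa (log2 -1.57, edgeR adjusted p = 0.000489) and Adam9 (log2 -1.03, edgeR adjusted p = 8.9e-05) were lower in co-culture. The PAPP-A inhibitor Stc2 was higher (log2 0.97, edgeR adjusted p = 0.000927).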

How the data were processed

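RNA was sequenced from 15 heart and 6 fibroblast libraries. Library preparation adapted Smart-seq2 and added UMI barcodes, per the labels' protocols. Reads went through STAR and HTSeq on the mm10 build, per the submitters' processing notes (versions not given in the sources used here). The deposited values are whole counts per gene. Duplicate removal is named in the fibroblast file names alone, and hearts and cultures were not compared. Of 53801 identifiers, 53620 had a symbol in GENCODE M21 without the version number, and 0 entries were summary lines that name no gene. Promoter sequences are RefSeq's, matched by symbol for all 9 genes. Left unused were 6 columns of a table of the whole series, whose names match no label.

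Groups were tested with edgeR 4.0.16 in R 4.3.3 (filterByExpr, TMM, quasi-likelihood F test, Benjamini-Hochberg over all genes tested), with all 15 hearts in one fit and the 6 cultures in another. The SE is approximate, the log2 fold change over the root of F. Alternatives were RLE and total-count scaling, no filter, 1 CPM in 3 libraries, DESeq2 1.42.0, limma-voom 3.58.1, a replicate block, fits of only the 2 groups, and each library left out. The test was tested on simulated data. No 2 replicates were copies.

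The genes and lists were chosen with earlier results of these data known. Named are the 9 genes, up to 3 called genes per list and direction with the smallest p, Fap, the first 3 markers of each marker list and the 2 closest patterns. Krt8, Krt18, Fabp4 and the motif examples were named after their values were seen.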

Additional observations from a re-analysis of the deposited data

Results flagged for a closer look

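Igfbp4 in FAPI replicate 3 stood apart from its group, with 133 CPM against 93.0 to 98.3 CPM in the other 3 FAPI hearts. Its gap to the nearest of them, 0.865 of the group's range, exceeded Dixon's 95% critical value for 4 samples. It was the one such value among 27 groups of 4 checked (9 genes in 3 groups), where chance alone flags about 1 in 20. Without this library, Igfbp4 in FAPI versus MI hearts was -0.91 on the log2 scale (edgeR adjusted p = 0.000791), against -0.78 (edgeR adjusted p = 0.00223) with it.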

How the results depend on the processing

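The number of the 9 genes that passed in FAPI versus MI hearts was 1. It was 7 with total-count scaling, 3 with no filter and 1 to 2 with a library left out. It was 2 with a filter of 1 CPM in 3 libraries, with DESeq2 and with only the 2 groups in the fit. No filter added Igfbp2 (-0.76, edgeR adjusted p = 0.0425) and Igfbp3 (-0.53, edgeR adjusted p = 0.0295). The filter of 1 CPM added Igf1r (-0.24, edgeR adjusted p = 0.0474) and DESeq2 added Igf1 (-0.36, DESeq2 adjusted p = 0.045). The fit of only the 2 groups added Igfbp3 (-0.57, edgeR adjusted p = 0.0222). In FapKO versus sham hearts the number that passed was 5, and 8 with total-count scaling. In FapKO versus FAPI hearts it was 1, and 2 with total-count scaling, with no filter, with only the 2 groups, and with a replicate block, which adds Igfbp2 (-1.29, edgeR adjusted p = 0.0417), and 1 to 2 with a library left out. The replicate block changed no other call. Deviations of same-numbered libraries correlated at -0.201 to 0.347 in hearts, mostly positive, and those of differently numbered libraries at -0.373 to 0.402. In culture these ranges were -0.158 to 0.0521 and -0.111 to 0.165. As the ranges overlap, they do not show whether replicate numbers pair libraries. The other counts stayed within 1.5 times, though Igfbp5 passed as higher in FapKO versus MI hearts with no filter and with DESeq2. Over all 17064 genes tested, total-count scaling called 9933 in FAPI versus MI, 9994 in FapKO versus sham and 2318 in FapKO versus FAPI hearts. With TMM these were 5081, 6740 and 2247. Of the values that passed, those that missed the threshold under an alternative were Igf2r in culture (with limma-voom, -0.95, limma adjusted p = 0.092, and with either of 2 co-culture libraries left out) and Igf2r in FAPI versus sham without sham replicate 1, and none turned sign. Signs turned only for genes that did not pass. With total-count scaling these were Igfbp5 in MI versus sham (1.06), Igfbp5 (-0.35) and Igfbp6 (-0.36) in FAPI versus MI, Igf2r (-0.48, edgeR adjusted p = 0.00132), Igfbp5 (-0.01) and Igfbp6 (-0.42) in FapKO versus MI, Igf2r (-0.05), Igfbp4 (-0.10) and Igfbp6 (-0.05) in FapKO versus FAPI, and Igf1 in culture (-0.14). Relative to the median of all genes, Igf2r in FapKO versus MI was 0.15 under both scalings. Igfbp5 was 0.01 in MI versus sham with no filter, and in FAPI versus sham -0.03 with RLE and with DESeq2 and -0.08 with the replicate block. Igfbp3 in FapKO versus sham was -0.01 with the replicate block. With a library left out, the log2 fold change crossed 0 for genes that had not passed: in MI versus sham it spanned -0.20 to 0.10 for Igfbp5, in FAPI versus MI -0.08 to 0.05 for Igf2r, -0.08 to 0.23 for Igfbp5 and -0.22 to 0.17 for Igfbp6, in FapKO versus MI -0.14 to 0.28 for Igfbp6, in FAPI versus sham -0.12 to 0.13 for Igfbp5 and -0.07 to 0.30 for Igfbp6, in FapKO versus sham -0.11 to 0.31 for Igfbp3, and in FapKO versus FAPI -0.03 to 0.18 for Igfbp4 and -0.17 to 0.35 for Igfbp6. The cause of these changes was not tested. Depth limits Igfbp2 in sham hearts (11 to 45 counts) and Igfbp5 in culture (18 to 51 counts in co-culture and 18 to 22 in 3D-culture). The scalings of the other pathway genes were chosen after seeing the data.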
